A study of Mus musculus with 4 samples.

Results

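The 9 mouse genes of the Hes and Hey family of repressors (Hes1, Hes2, Hes3, Hes5, Hes6, Hes7, Hey1, Hey2 and Heyl) were examined in leukemic whole bone marrow of C57BL/6 mice. They were picked by symbol in the array annotation, each had 1 probe set with a single symbol, and they are 9 of 19938 measured genes. Both genotypes carried MLL-AF9, a fusion of the Mll gene with Af9 that causes acute leukemia. Of the 4 Affymetrix arrays, 2 came from MLL-AF9/Hes1+/+ marrow (wild type) and 2 from MLL-AF9/Hes1-/- marrow (Hes1-null). The labels do not state how Hes1 was removed, the age of the mice or whether each array holds a separate animal, and p-values therefore measure the spread between these samples, which may be partly technical. The comparison asks whether any relative of Hes1 is higher in marrow that lacks it.

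Hes and Hey proteins are basic helix-loop-helix repressors. When a Notch receptor is cleaved after ligand binding, its freed intracellular part joins the DNA-binding protein Rbpj and a Mastermind coactivator and switches on genes that include Hes1, Hes5 and the Hey genes. Their products then bind DNA at N box, class C and related sites and recruit Groucho (Tle) corepressors, and Hes1 is known to repress its own promoter. Hes6 differs from its relatives in that it is not a typical Notch target and is known to oppose Hes1.

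Levels below are log2 of the deposited intensity. A difference is the mean of the Hes1-null arrays minus the mean of the wild-type arrays, with its standard error (SE, n = 2 arrays a genotype) and adjusted p from limma's moderated test over all genes. Of the 8 relatives of Hes1, 0 passed an adjusted p of 0.05 in either direction, where 0.145% of all genes passed it (0.0702% in the upward direction). Hes6 was the only one of the 8 with an unadjusted p under 0.05, a mark reached by 8.29% of all genes, and in the upward direction by 3.51% of all genes. The median difference of the 8 relatives was 0.06, against -0.02 over all genes. Median array intensities over all probe sets, on the linear scale, ran from 65.0 to 67.3. Precision is limited by having 4 arrays.

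The deleted gene, Hes1, was read as a check of the labels. Its level was 5.59 and 5.79 in wild type and 5.43 and 5.84 in Hes1-null marrow. The Hes1-null arrays therefore enclosed the wild-type values, and the difference was -0.06 ± 0.18 (adjusted p = 0.968, 95% interval 0.697-fold to 1.33-fold). The probe set was dim. Of 35 genes of other tissues, such as those of liver, retina, pancreas and testis, taken as silent in marrow, 9 had a higher mean level. Background differs between probe sets, so these genes serve only as a guide to which levels may be background. The labels do not say whether the probes lie in the deleted part. The array thus gives no check of the genotype, and Hes1-null means labelled as such throughout.

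Hes6 was the member with the largest difference between the genotypes. Wild-type levels were 9.14 and 8.99, and Hes1-null levels were 10.44 and 10.13. Both Hes1-null arrays stood above both wild-type arrays, and the gap between the genotypes exceeded the gap within either of them. In linear intensity, the wild-type arrays read 564.5 and 507.3, and the Hes1-null arrays read 1385 and 1119.5. The difference was 1.22 ± 0.18, or 2.33-fold with a 95% interval from 1.71-fold to 3.17-fold. Its unadjusted p was 0.000716 and its adjusted p 0.123 by limma, so Hes6 missed the threshold of 0.05. By unadjusted p it held place 115 of 19938 genes, and by size of the positive difference place 122. A positive difference of this size or more with no overlap between the genotypes was found for 0.602% of genes. Whole marrow holds many cell types, and a change in the share of cells with Hes6 cannot be told apart from a change in Hes6 RNA per cell.

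Which arrays entered the fit decided whether Hes6 was called. Without Hes1-null replicate 1 the difference was 1.06 and the adjusted p 0.0426, which is past the threshold. Without Hes1-null replicate 2 the difference was 1.37 with an adjusted p of 0.0760. Leaving out wild-type replicate 1 gave 1.30 with an adjusted p of 0.496, and leaving out wild-type replicate 2 gave 1.14 with an adjusted p of 0.807. The lone array of a genotype is then assumed to vary like the arrays of the other.

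**Figure D1:**
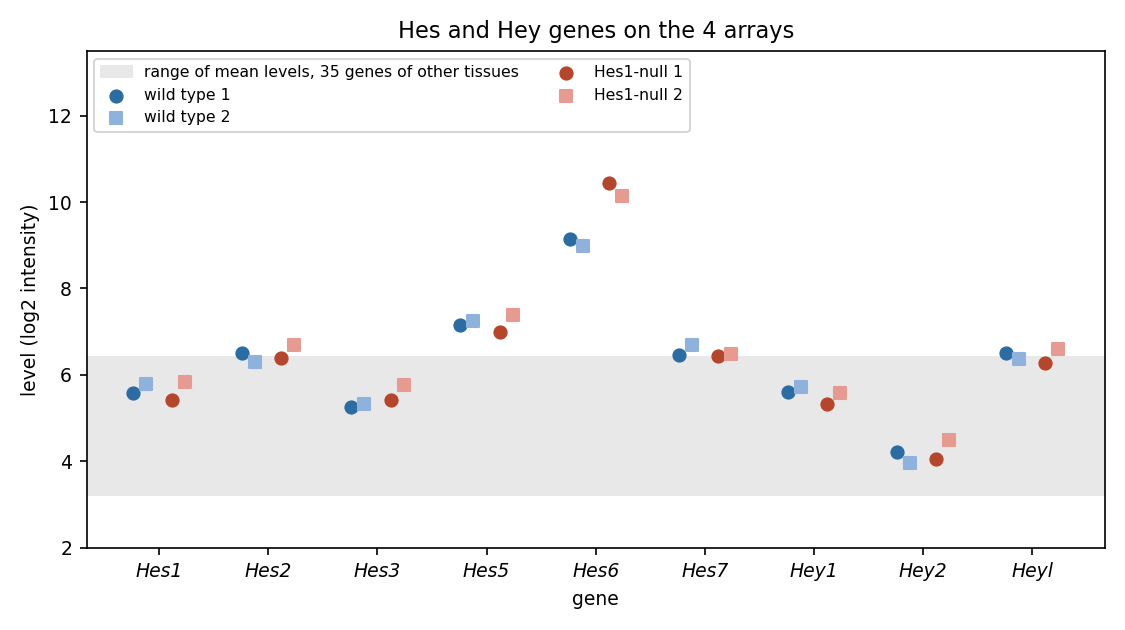
Level (log2 intensity) of each Hes and Hey gene on the 2 wild-type (blue) and 2 Hes1-null (red) arrays, with circles for replicate 1 and squares for replicate 2. The grey band spans the mean levels of 35 genes of other tissues, whose highest was 6.43. Hes6 is the gene whose Hes1-null points (10.44 and 10.13) stand clearly apart from its wild-type points (9.14 and 8.99), while levels of different genes are not on one scale, since each has its own probes.

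The sequence before the Hes6 start is shown because it is the member that differed, and that before Hes5, a classical Notch target whose level did not differ, is shown beside it. Both are the 250 bases upstream of a start in RefSeq (GRCm38.p6), read 5′ to 3′ on the strand of the gene. The position of the probes relative to these starts was not used here. Hes6 is at chr1:91414039-91414288 on the minus strand and Hes5 at chr4:154960673-154960922 on the plus strand. Capitals mark the Rbpj core (TTCCCAC or its reverse complement GTGGGAA), the N box (CACNAG or CTNGTG) and the class C site (CACGNG or CNCGTG), where N is any base and the last pair of motifs can overlap.
Hes6: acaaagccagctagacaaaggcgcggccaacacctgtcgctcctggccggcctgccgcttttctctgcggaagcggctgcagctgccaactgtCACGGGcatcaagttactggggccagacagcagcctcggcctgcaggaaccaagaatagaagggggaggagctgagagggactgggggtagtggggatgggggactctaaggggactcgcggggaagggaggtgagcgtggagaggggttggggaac
Hes5: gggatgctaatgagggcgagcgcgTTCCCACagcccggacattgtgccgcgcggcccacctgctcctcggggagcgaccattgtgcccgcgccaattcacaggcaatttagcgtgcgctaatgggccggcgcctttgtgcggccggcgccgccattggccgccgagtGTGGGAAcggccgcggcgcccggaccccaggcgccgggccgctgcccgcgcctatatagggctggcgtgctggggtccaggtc

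The Hes5 window holds 2 matches to the Rbpj core and 0 to the N box or class C site. The Hes6 window holds 0 matches to the Rbpj core and the N box and 1 to the class C site. A further RefSeq start of Hes6 has a window with 0 matches to the Rbpj core and 1 to the N box, in the 30 bases at chr1:91413442-91413471 (minus strand). The window before Hes7 holds 1 match to the Rbpj core, 1 to the N box and 2 to the class C site, the N box match sharing its letters with a class C match. That before Hey2 holds 1 match to the Rbpj core and 0 to the others. The 30 bases around the Rbpj core matches of Hes7 and Hey2 are those at chr11:69120261-69120290 (plus strand) and chr10:30842973-30843002 (minus strand).
Hes6 further start, N box: gaagtacaagcaCACCAGcaagagagaagc
Hes7, Rbpj core: tcctcccctcacTTCCCACatttggggcta
Hey2, Rbpj core: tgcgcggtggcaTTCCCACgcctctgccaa

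Over all 32851 RefSeq windows of 250 bases, 5.42% hold the Rbpj core, 36.7% the N box and 23.5% the class C site on either strand. The general E box of basic helix-loop-helix factors (CANNTG, which can overlap a class C site) is in 66.2% of windows. It occurs 3 times before the upstream Hes6 start and once each before the further Hes6 start, Hes5 and Hey2, and 2 times before Hes7. These matches are letters in a window and not measured binding sites. The promoter table matched 4 of the 9 members.

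The other Hes genes gave differences within or near the spread of their arrays. Hes5, which helps keep neural stem cells undifferentiated, lay at 7.16 and 7.25 in wild type and at 7.00 and 7.39 in Hes1-null marrow. Its genotypes overlapped, and the difference was -0.01 ± 0.19 (adjusted p = 0.998, 95% interval 0.712-fold to 1.39-fold). All 4 Hes5 values were above those of the 35 genes of other tissues, of which the highest on any array was 6.68.

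Hes7, a part of the oscillator that times somite formation in the embryo, lay at 6.45 and 6.70 in wild type and at 6.45 and 6.49 in Hes1-null marrow. The arrays overlapped, with a difference of -0.11 ± 0.16 (adjusted p = 0.916). Hes2 lay at 6.52 and 6.30 in wild type and at 6.40 and 6.68 in Hes1-null marrow, again overlapping, with a difference of 0.13 ± 0.17 (adjusted p = 0.906). These levels are close to the highest of the genes of other tissues.

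Hes3, known from neural progenitors, lay at 5.26 and 5.33 in wild type and at 5.42 and 5.77 in Hes1-null marrow. Both Hes1-null arrays were above both wild-type arrays, a pattern found for 17.4% of all genes, and the difference was 0.30 ± 0.16 (adjusted p = 0.724). This level may be background, since 14 of the 35 genes of other tissues had a higher mean. Among the 8 relatives, 2 had both Hes1-null arrays higher, Hes3 and Hes6, and 1 had both lower, Hey1.

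Of the Hey genes, Hey1 and Hey2 were dim, and Heyl lay near the level of the highest gene of other tissues. Hey1, a Notch target of endothelial cells, lay at 5.60 and 5.72 in wild type and at 5.32 and 5.59 in Hes1-null marrow. Both Hes1-null arrays were lower, as for 20.6% of all genes, with replicate 2 close beneath wild-type replicate 1, and the difference was -0.21 ± 0.15 (adjusted p = 0.802). Heyl, known from vascular smooth muscle, lay at 6.50 and 6.38 in wild type and at 6.27 and 6.59 in Hes1-null marrow, with overlap and a difference of -0.01 ± 0.17 (adjusted p = 0.997).

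Hey2, a regulator of heart and artery development, lay at 4.22 and 3.96 in wild type and at 4.06 and 4.49 in Hes1-null marrow. The genotypes overlapped, with a difference of 0.18 ± 0.19 (adjusted p = 0.885). Its level was below the means of 31 of the 35 genes of other tissues. Of 12 endothelial markers, 4 had a mean above the highest of the genes of other tissues, namely Eng, Flt1, Egfl7 and Pecam1. Of the 12, 6 were lower on both Hes1-null arrays, beside 20.6% of all genes. Eng, Kdr and Flt1 had an unadjusted p under 0.05, with differences of -1.64 ± 0.32, -0.54 ± 0.13 and -0.64 ± 0.22 (adjusted p from 0.218 to 0.522). The defining marker Cdh5, the vascular cadherin gene, lay between 5.54 and 5.60 on all 4 arrays, which may be background too. The part of endothelial cells in the values of the Hey genes was not tested.

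Without Hes6, the 7 other relatives had differences from -0.21 to 0.30, and their adjusted p ran from 0.724 to 0.998. Their 95% intervals lay between 0.668-fold and 1.63-fold, so a difference of up to 1.63-fold upward is within what these arrays allow for Hes3 and smaller ones for the rest. At levels near background an array difference can understate a change in RNA, so these bounds hold for the measured intensity.

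**Figure D2:**
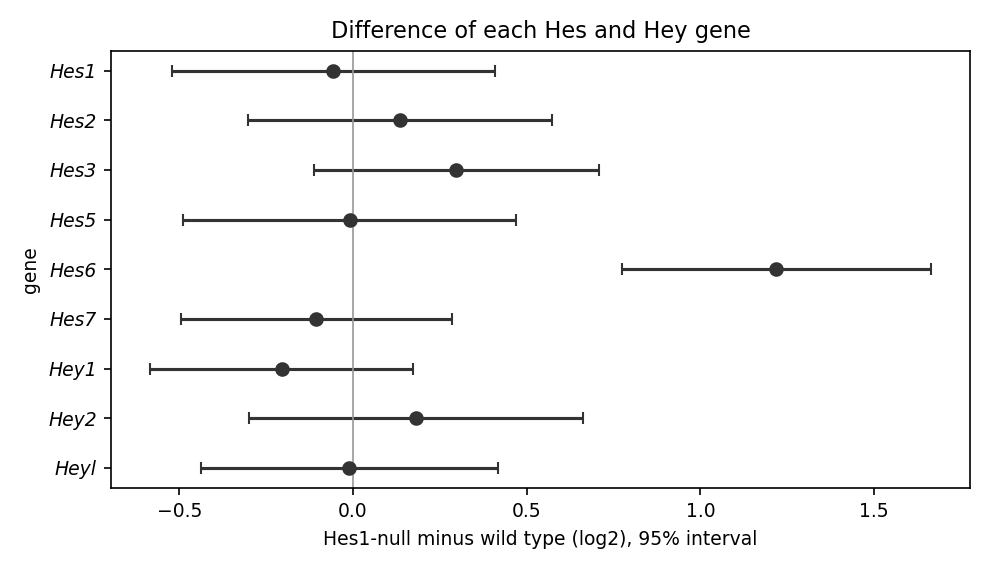
Difference between Hes1-null and wild-type marrow (log2, points) with its 95% interval (bars) for each member, n = 2 arrays a genotype. The Hes6 interval, from 0.77 to 1.66, lies wholly above 0, and the intervals of the other 8 genes include 0.

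The Hes1-null arrays differed from each other in the same way for every member but Hes6. Replicate 2 was higher than replicate 1 for 8 of the 9 members, by a median of 0.34 among those 8, and lower for Hes6, by 0.31. Genes were split into 4 bands of about equal size by mean level. In the lowest band, which holds Hey2, replicate 2 was higher for 74.4% of genes, and in the second band, with Hes1, Hes3 and Hey1, for 71.1%. The third band holds Hes2, Hes5, Hes7 and Heyl, and there replicate 2 was higher for 41.3% of genes with a median gap of -0.10, while these 4 members had gaps from 0.05 to 0.39. In the highest band it was higher for 38.0%. Among the 35 genes of other tissues it was higher for 26 (median gap 0.16). The wild-type arrays showed no such pattern, with medians of 0.08 for the 8 members and 0.05 for the genes of other tissues. The part of this gap in the small differences of the members was not tested. The median difference of the 8 relatives was 0.23 when Hes1-null replicate 1 was left out and -0.080 when replicate 2 was.

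**Figure D3:**
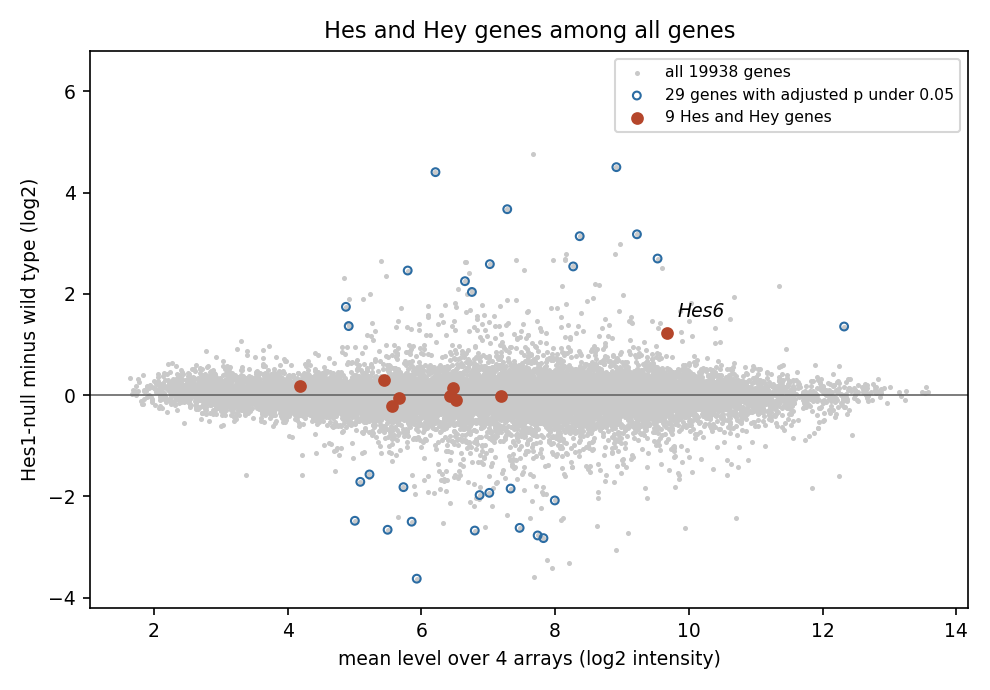
Difference between genotypes (log2) against mean level over the 4 arrays (log2 intensity) for all 19938 genes (grey), with the 29 genes past an adjusted p of 0.05 ringed and the 9 members in red. Hes6, labelled, stands at 1.22 above the main cloud without a ring, and the other 8 members lie within it.

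Genes whose pattern over the 4 arrays was most like that of Hes6 were ranked by the root mean square distance of array levels after each gene's mean was subtracted, among 17029 named genes. The nearest was Nlgn2, which encodes the adhesion molecule neuroligin 2, at a distance of 0.032. It lay at 7.66 and 7.49 in wild type and at 8.89 and 8.57 in Hes1-null marrow. Next came Reep6 (0.045), Slc43a1 (0.046), Zfp568 (0.061) and Zfp580 (0.089), with differences from 1.15 to 1.38 and adjusted p from 0.118 to 0.208. All 5 were high on both Hes1-null arrays and highest on replicate 1, as Hes6 was. They are the 5 genes within a distance of 0.1 of Hes6. For Hes1 the nearest gene was Acte1 (0.0090), followed by Nkiras2, Dnm3os, Arhgap29 and Edil3, and 1444 genes lay within 0.1. With 4 arrays these distances describe a shape and carry no test.

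Neighbouring genes in the RefSeq order were read as a local comparison. Of the 18 nearest measured genes on each side of the 9 members, 0 passed the adjusted threshold and 5 had an unadjusted p under 0.05, where 8.29% of all genes had one. Hes6 lies between Ilkap and the circadian clock gene Per2. Ilkap, a phosphatase gene, lay at 9.10 and 8.75 in wild type and at 8.91 and 9.20 in Hes1-null marrow, with overlap (0.13 ± 0.21, adjusted p = 0.923). Per2 lay at 7.44 and 7.92 in wild type and at 8.56 and 8.52 in Hes1-null marrow. Its Hes1-null arrays were both higher (0.85 ± 0.21, adjusted p = 0.345).

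Hes7 lies beside Per1, a paralog of Per2. Per1 lay at 9.24 and 9.29 in wild type and at 10.00 and 11.04 in Hes1-null marrow, both higher (1.25 ± 0.35, adjusted p = 0.408), while Hes7 itself overlapped between genotypes. The neighbours of Hes1 itself, Gm1968 and 1700025H01Rik, had differences of -0.27 ± 0.13 (adjusted p = 0.675) and -0.0015 ± 0.22 (adjusted p = 1).

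The remaining 3 neighbours with an unadjusted p under 0.05 lay beside members that overlapped between genotypes. Bmp8a, a bone morphogenetic protein gene beside Heyl, differed by 0.85 ± 0.23 (adjusted p = 0.379). Hddc2 beside Hey2 differed by 0.49 ± 0.16 (adjusted p = 0.498), and Tnfrsf14, a receptor gene beside Hes5, by -0.63 ± 0.21 (adjusted p = 0.529). The other 10 had larger p. Ncoa7 beside Hey2 differed by -0.43 ± 0.27 and Pank4 beside Hes5 by 0.22 ± 0.16. Espn and Acot7 beside Hes2, Gpr153 and Icmt beside Hes3, Stmn2 and Mrps28 beside Hey1, Nt5c1a beside Heyl and 9130213A22Rik beside Hes7 had differences from -0.14 to 0.12.

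The other genes of the pathway were read by role. A list of other helix-loop-helix factors, chosen as relatives of the Hes and Hey proteins, was added and is counted among the pathway genes. In all, 94 of 101 listed genes had a single-symbol probe set, and 5 of them (Dll1, Bhlhe40, Atoh1, Neurog2 and Neurog3) stand in 2 lists. Of these, 0 passed the adjusted threshold, and 16 (17.0%) had an unadjusted p under 0.05, 8 higher and 8 lower in Hes1-null marrow, beside 8.29% of all genes. The list of other helix-loop-helix factors supplied 3 of the higher and 1 of the lower genes. The median difference of the 94 genes was -0.03.

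Among 11 receptors and ligands the median difference was -0.06. Notch1 lay at 9.22 and 9.46 in wild type and at 9.35 and 10.36 in Hes1-null marrow, so its genotypes overlapped (0.51 ± 0.35, adjusted p = 0.786), and Notch2 differed by -0.03 ± 0.24. The ligand gene Jag2 lay at 6.39 on both wild-type arrays and at 6.66 and 7.01 in Hes1-null marrow (0.44 ± 0.17, adjusted p = 0.595). Dlk1, a ligand-like gene, was set apart by wild-type replicate 1, at 9.57 against 7.55 on replicate 2, and at 6.87 and 7.43 in Hes1-null marrow (adjusted p = 0.667). Dll1 and Jag1 differed by -0.27 ± 0.14 and -0.24 ± 0.16, with means of 5.65 and 5.64, below the highest of the genes of other tissues.

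Among 24 genes of receptor processing and modification the median was 0.02. Poglut1, which glycosylates Notch, differed by -0.72 ± 0.21, and the receptor protease genes Adam10 and Adam17 by -0.38 ± 0.14 and -0.45 ± 0.21. Dtx3, a Deltex family gene, differed by 0.62 ± 0.20. The adjusted p of these 4 ran from 0.442 to 0.668.

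The nuclear complex and its corepressors (21 genes) had a median of -0.02. Rbpj, the DNA-binding partner of Notch, lay at 9.63 and 9.67 in wild type and at 9.36 and 9.29 in Hes1-null marrow, lower on both arrays (-0.32 ± 0.15, adjusted p = 0.662). Tle3, a Groucho corepressor of the kind Hes proteins recruit, lay at 9.66 and 9.89 in wild type and at 10.20 and 10.73 in Hes1-null marrow (0.69 ± 0.22, adjusted p = 0.498). Of the other Groucho genes measured, Tle1, Tle2, Tle4 and Tle6 differed by 0.08, -0.02, 0.14 and 0.31. Maml1, a Mastermind coactivator, and the acetyltransferase gene Kat2a differed by 0.75 ± 0.26 and 0.46 ± 0.17. Runx1, a partner of the complex in blood cells, differed by -0.92 ± 0.15 (adjusted p = 0.155).

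Other targets of Notch had a median of -0.22 over 12 genes, with 0 higher and 4 lower at an unadjusted p under 0.05. These were Igf1r (-0.98 ± 0.21), Bcl2 (-0.51 ± 0.16), the granzyme gene Gzmb (-0.44 ± 0.17) and the T cell receptor component gene Cd3e (-0.39 ± 0.15), with adjusted p from 0.249 to 0.595. Cd3e is also a T cell marker. Of 7 measured T cell markers, 5 were lower on both Hes1-null arrays, beside 20.6% of all genes. Cd3d was higher on both (0.19 ± 0.13). The summed intensity of those 7 ran from 628 to 946 in wild type and from 385 to 423 in Hes1-null marrow, but Cd28 made up most of that difference. Without Cd28 the other 6 summed to 407 and 395 in wild type and to 352 and 318 in Hes1-null marrow, and 2 of the 7 were above the genes of other tissues. Their part in the values of Cd3e and Gzmb was not tested. Nrarp, a feedback inhibitor that Notch induces in many tissues, differed by -0.02 ± 0.18. It lay at 5.74 and 5.81 in wild type and at 5.98 and 5.54 in Hes1-null marrow. The means of Nrarp and Gzmb (5.77 and 5.49) were below the highest of the genes of other tissues.

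Known target genes of Hes1 (13 measured) had a median of -0.02, and 0 had an unadjusted p under 0.05. Of the 13, 7 had a mean above the highest of the genes of other tissues. Gfi1, Dll1, Pparg and Bmi1 differed by -0.50 ± 0.25, -0.27 ± 0.14, -0.78 ± 0.44 and 0.32 ± 0.20. The cell cycle inhibitor gene Cdkn1b lay at 9.83 and 9.90 in wild type and at 10.00 and 10.20 in Hes1-null marrow, higher on both arrays (0.23 ± 0.15, adjusted p = 0.775). The proneural genes Neurog2, Neurog3 and Atoh1, which Hes1 represses in the nervous system and gut, had differences from -0.05 to 0.09. Their means (5.79, 4.76 and 4.87) were below the highest of the genes of other tissues, so these levels may be background. Bhlhe40, a related repressor, varied most within genotypes, at 6.20 and 7.68 in wild type and at 6.73 and 8.59 in Hes1-null marrow.

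Other helix-loop-helix factors held the largest positive differences of the pathway lists. Tcf4, which encodes the E protein E2-2, lay at 9.33 and 8.93 in wild type and at 10.91 and 10.98 in Hes1-null marrow. The genotypes were well apart, with a difference of 1.82 ± 0.18, or 3.52-fold, and an adjusted p of 0.0591. Tcf4 passed the threshold after a further quantile normalization (adjusted p = 0.0486), with the arrays centred on their medians (adjusted p = 0.0466) and with a replicate block (adjusted p = 0.0300). It also passed with the arrays centred on the 35 genes of other tissues (adjusted p = 0.0329), an alternative chosen after seeing the data. The other alternatives that kept all 4 arrays gave adjusted p from 0.0563 to 0.0750, so Tcf4 missed the threshold there. With 1 array left out, its difference ran from 1.62 to 2.02.

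Tcf12, which encodes the E protein HEB, lay at 10.01 and 9.74 in wild type and at 10.91 and 10.92 in Hes1-null marrow (1.04 ± 0.15, adjusted p = 0.126). Tcf3, the E2A gene, was also higher on both Hes1-null arrays, by less (0.24 ± 0.17, adjusted p = 0.788). Of the Id genes, whose products hold E proteins off DNA, Id2 and Id1 differed by 0.91 ± 0.26 and 0.54 ± 0.22, and Id3 and Id4 by -0.23 ± 0.18 and -0.15 ± 0.16. Ascl2 differed by -0.46 ± 0.13. The means of Id3, Id4 and Ascl2 (4.97, 6.12 and 5.99) were below the highest of the genes of other tissues.

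**Figure D4:**
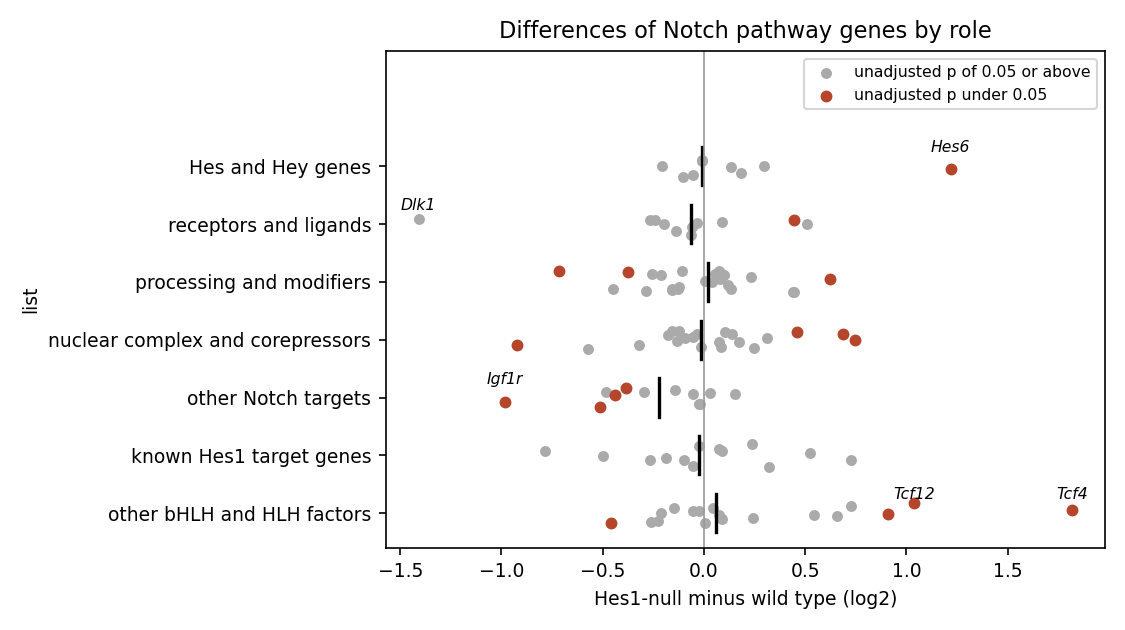
Difference between genotypes (log2) of each measured gene in the Hes and Hey family and in 6 lists of pathway genes, with red points for an unadjusted p under 0.05 and a black bar at the median. Hes6, Tcf12 and Tcf4 lie farthest to the right (1.22, 1.04 and 1.82) and Dlk1 and Igf1r farthest to the left, and vertical scatter within a list has no meaning.

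Markers of other cell types and genes that respond to sample handling also lay apart between the genotypes. Of 15 immediate early genes, 13 were higher on both Hes1-null arrays, and 1 of them, Jun, passed the adjusted threshold (2.70 ± 0.16, adjusted p = 0.0231). The summed intensity of the 15 was 4690 and 5321 in wild type and 13198 and 21672 on Hes1-null replicates 1 and 2. For comparison, 17.4% of all genes were higher and 20.6% lower on both. Neutrophil markers were lower on both Hes1-null arrays for 6 of 10 and higher on both for 1, Mmp8 (0.95 ± 0.40). Among those lower on both, 1 passed the adjusted threshold, Ltf (-2.77 ± 0.23, adjusted p = 0.0398). The summed intensity of the 10 neutrophil markers ran from 13742 to 22268 in wild type and from 9664 to 12600 in Hes1-null marrow. All 9 measured markers of the leukemic myeloid lineage were above the genes of other tissues. Of these, 4 were lower on both Hes1-null arrays, 3 of them with an unadjusted p under 0.05. The 4 were Elane (-1.61 ± 0.18), Mpo (-1.83 ± 0.50), Csf1r (-1.10 ± 0.27) and Lyz2 (-0.51 ± 0.23), with adjusted p from 0.0789 to 0.654. Another 2, Cd68 and Ctsg, were higher on both (0.23 ± 0.10 and 0.28 ± 0.16). Megakaryocyte markers were lower on both for 4 of 5, each with an unadjusted p under 0.05. The largest difference was that of the platelet chemokine gene Ppbp (-1.91 ± 0.23, adjusted p = 0.0862). The sum of the 5 ran from 503 to 644 in wild type and from 320 to 339 in Hes1-null marrow. Of the 5, 3 had a mean above the highest of the genes of other tissues, and Ppbp (mean 6.10) did not. Stromal markers were lower on both for 7 of 10 and higher on both for 1, Pdgfrb (0.80 ± 0.27). Of the 7, 4 had an unadjusted p under 0.05, namely Sparc, Cxcl12, Bgn and Dcn. Sparc (-0.99 ± 0.15, adjusted p = 0.139) had a mean of 6.55, above the highest of the genes of other tissues. Cxcl12, Bgn and Dcn had means of 5.87, 5.99 and 4.87, below the highest of the genes of other tissues. Of the 10, 4 had a mean above it. The stromal sums overlapped, at 1007 and 1204 in wild type and 1163 and 1141 in Hes1-null marrow. These sums lean on Pdgfrb, the brightest of the 10, which went the other way from the 7 lower on both. Pdgfrb lay at 8.13 and 8.82 in wild type and at 9.36 and 9.18 in Hes1-null marrow. The overlap therefore does not show how the other stromal markers moved. Of 5 erythroid and 7 B cell markers, 1 of each was above the genes of other tissues. Among the B cell markers this was Cd79b, at 9.50 to 10.48. The B cell markers Cd79a, Pax5 and Ms4a1 had means of 4.97, 5.64 and 3.97, so Cd79b alone does not show B cells. The part of these cell types and of handling in the Hes6 difference was not tested.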

How the data were processed

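Mouse gene arrays measured total RNA of leukemic marrow. The deposited values are probe set intensities on a linear scale, which, per the submitters' processing notes, the authors obtained by RMA with Expression Console from Affymetrix. Versions are not given in the sources used here. Log2 was taken with nothing added and without renormalization. All 4 columns of the table were used.

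Of 35556 probe sets, 21789 carry 1 gene symbol in the platform annotation. Each of 19938 genes was represented by its brightest probe set on average, without a filter on dim probe sets. RefSeq (GRCm38.p6) supplied names, gene order and promoter sequence.

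Genotype was the only term of the fit in limma 3.58.1 under R 4.3.3. The test was two-sided, with lmFit, then eBayes with its trend option, and was tested on simulated data. P-values were adjusted by Benjamini-Hochberg over all genes at a threshold of 0.05. The members and lists were chosen with earlier results of these data known. Named genes are the 9 members, up to 4 genes of each pathway list with the smallest unadjusted p, the 5 nearest patterns to Hes1 and Hes6, and the genes beside each member. Other named genes, such as Notch1, Rbpj, the remaining Tle and Id genes, Tcf3, Nrarp and single marker genes such as Eng and Ppbp, were chosen after their values were seen, by their role.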

Additional observations from a re-analysis of the deposited data

How the results depend on the processing

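Under the 17 alternatives Hes6 was higher in Hes1-null marrow each time, with a difference from 1.06 to 1.37 and adjusted p from 0.0426 to 0.807 by limma. It passed the threshold in 1, without Hes1-null replicate 1. None of the other 8 members passed in any alternative that tested it. With 1 array left out, the count of relatives called ran from 0 to 1, that of pathway genes called from 0 to 10, that of all genes called from 6 to 999, and the median difference of the relatives from -0.080 to 0.23. The highest value of each came without Hes1-null replicate 1, and all genes called fell to 15 when Hes1-null replicate 2 was left out and to 6 for wild-type replicate 2. Against 29 genes called, array weights gave 45 and a further quantile normalization 46. Keeping genes from the 25th percentile of level upward gave 17, and from the median upward 5, with fewer genes tested. A pair of alternatives chosen after seeing the data, centring on the 35 genes of other tissues and keeping genes above them, gave 83 and 5. Pathway genes called were 0, and 1 after quantile normalization, after centring on array medians or on genes of other tissues, and with a replicate block. That gene was Tcf4, from the list of other helix-loop-helix factors. With the replicate number as a block 89 genes were called, and Hes6 had an adjusted p of 0.0751. Samples of the same number did not deviate together (correlation 0.0505 across genes), and although the series' design text speaks of 2 pairs of null and wild-type marrows, it does not say what pairs them or that the numbers do. Where the cause of a change is not given, the cause was not tested. The values carry no detection calls, so the dim members have no stated limit of detection.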
